A study of Mus musculus with 2 samples.

Results

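The miR-17-92 cluster, the miR-106b-25 cluster and the single miR-92b gene were examined in left cerebral cortex of the mouse. The 10 genes were taken by symbol from the 2202 miRNA genes in the count tables: Mir17, Mir18, Mir19a, Mir20a, Mir19b-1 and Mir92-1 on chromosome 14, Mir106b, Mir93 and Mir25 on chromosome 5, and Mir92b on chromosome 3. Mir92-1 is the chromosome 14 copy of a gene that also has a copy on the X chromosome. Small RNA under 30 nucleotides was sequenced from adult B6CASTF1/J mice, F1 hybrids of the B6 and CAST strains, aged 18 to 20 months and without any stated treatment. The labels form 1 group of 2 biological replicates, named female in most fields and male in a free-text field. Both replicates carry 1 donor identifier and separate biosample identifiers, so whether the spread between them is between animals or technical cannot be told here. With no second group there is no contrast between conditions, and the 2 libraries are compared only to describe their spread.

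A miRNA is cut from a hairpin in a longer transcript, and bases 2 to 8 of the arm loaded into Argonaute, the seed, direct it to messenger RNAs. The miR-17-92 cluster is best known for promoting proliferation under MYC and E2F, and is active in neural progenitors of the embryonic cortex. Its paralogue miR-106b-25 lies in the gene of the replication helicase subunit Mcm7, and miR-92b is known from neural progenitors, where it restrains the transcription factor Eomes. Among their seeds, that of miR-17 is known for repressing the cell cycle inhibitor Cdkn1a.

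The guide arms, from RefSeq (GRCm38.p6), fall into 4 seed families, shown because the genes are grouped by seed as well as by locus. All 10 genes matched the RefSeq table. The arm listed for each gene is the one commonly named as its guide, and the gene counts do not separate the arms. Capitals mark the seed. The miR-17 family holds 4 of the genes.
miR-17-5p (Mir17): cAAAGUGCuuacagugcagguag
miR-20a-5p (Mir20a): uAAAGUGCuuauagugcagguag
miR-106b-5p (Mir106b): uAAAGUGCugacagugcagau
miR-93-5p (Mir93): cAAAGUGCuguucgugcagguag
The miR-92 family holds 3 genes, 1 from each locus.
miR-92a-3p (Mir92-1): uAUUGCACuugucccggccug
miR-25-3p (Mir25): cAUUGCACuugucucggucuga
miR-92b-3p (Mir92b): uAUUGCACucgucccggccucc
The miR-18 and miR-19 families come from chromosome 14 alone among the 10 genes.
miR-18a-5p (Mir18): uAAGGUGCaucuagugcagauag
miR-19a-3p (Mir19a): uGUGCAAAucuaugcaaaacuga
miR-19b-3p (Mir19b-1): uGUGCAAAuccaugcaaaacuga
The miR-17-92 and miR-106b-25 clusters each hold a gene of the miR-17 and of the miR-92 seed, so seed family and cluster are separate ways to group the genes.

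The sense counts summed over genes to 5166667 in replicate 1 and to 4459993 in replicate 2. Levels are counts divided by that sum and multiplied by 1000000 (CPM), and 3 counts, taken as the one-sided limit for a count of 0, correspond to 0.581 and 0.673 CPM. Reads that fit several places in the genome, 41.8% and 46.4% of the total, enter no gene count. The neuron list stood at 36826 and 32458 CPM with 8 of 11 genes expressed, led by Mir128-1. The 3 copies of the neuronal Mir124a were between 0.194 and 4.06 CPM in gene counts. How many reads of these copies were left out as fitting several places was not tested, so low counts need not mean a low level. Intervals are exact and two-sided at 95%, and for a count of 0 they reach higher than the one-sided limit, to 0.714 and 0.827 CPM. Like the limits they take each read as a separate draw and speak of counting error alone. PCR copies cannot be told from separate molecules here, so the intervals may be too narrow even for that.

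At 2 CPM or more in both libraries, 8 of the 10 genes were expressed, beside 18.6% of all 2202 genes. Mir92b, which carries the miR-92 seed, was the highest in both libraries, with 50070 counts or 9691 CPM in replicate 1 and 15298 counts or 3430 CPM in replicate 2. It stood at place 25 among all miRNA genes in replicate 1 and at place 47 in replicate 2. Mir93 of the miR-17 seed followed at 955.2 and 1209 CPM. The 10 genes together held a share of 1.20% (replicate 1) and 0.551% (replicate 2) of the sense counts, a sum of 8776 ± 4621 CPM (SD, n = 2), and 2215 ± 194.2 CPM without Mir92b. For comparison, the median expressed gene stood at 88.9 CPM.

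**Figure D1:**
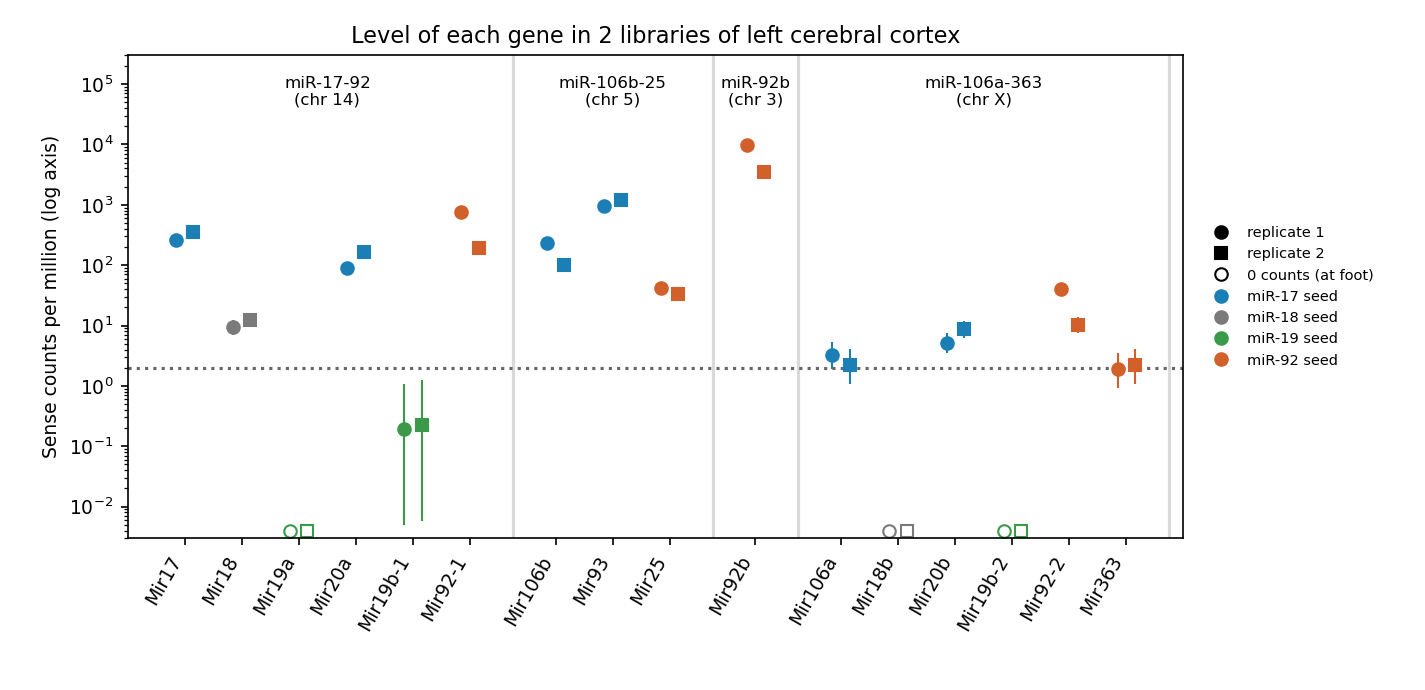
Level of each of the 10 genes and of the 6 genes of the X-chromosome paralogue in both libraries, in CPM of sense counts on a log axis, with exact 95% intervals for counting error; colour gives the seed family and the dotted line is 2 CPM. Mir92b is highest at 9691 and 3430 CPM, and the miR-19 genes lie below the line or at 0 counts, drawn at the foot.

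Below Mir92b and Mir93 the order of the genes differed between the libraries. Replicate 1 had Mir92-1 above Mir17 and Mir106b above Mir20a, and replicate 2 had both pairs the other way round. Mir92-1 and Mir17 therefore cannot be ordered beyond the spread of the libraries, nor can Mir106b and Mir20a, and the range of Mir92-1 also overlaps that of Mir106b. Mir25, Mir18, Mir19b-1 and Mir19a kept the lowest places in that order in both libraries. The hairpins are 80 to 107 nucleotides long, and dividing mean levels by length left all 10 genes at the same place.

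The miR-17-92 genes lie on the plus strand of chromosome 14 (mm10), within exon sequence of the long non-coding host gene Mir17hg. Mir17 (ENSMUSG00000065508.1), at 115043671 to 115043754, had 1326 and 1607 counts in the libraries. This made 256.6 and 360.3 CPM, higher in replicate 2 by 0.49 on the log2 scale (interval 0.38 to 0.60). Mir20a (ENSMUSG00000065442.1), at 115044157 to 115044263, stood at 89.8 and 167.9 CPM, also higher in replicate 2, with a log2 ratio of 0.90 (0.73 to 1.07). Both carry the miR-17 seed, and Mir17 exceeded Mir20a by 2.86-fold in replicate 1 and 2.15-fold in replicate 2.

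Mir18 (ENSMUSG00000065403.1), at 115043851 to 115043946 between them, was much lower, with 49 counts (9.48 CPM) in replicate 1 and 56 counts (12.6 CPM) in replicate 2. Its log2 ratio of 0.40 had an interval from -0.17 to 0.99, so no difference between the libraries was detectable at this depth. The ratio of Mir17 to its neighbour Mir18 was 27.1 (20.3 to 36.8) in replicate 1 and 28.7 (21.98 to 38.2) in replicate 2, and these intervals overlap.

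The miR-19 genes of the same transcript were hardly counted. Mir19a (ENSMUSG00000065416.1), at 115044000 to 115044081, had 0 counts in both libraries, for which the one-sided limit is 0.581 and 0.673 CPM and the two-sided interval ends at 0.714 and 0.827 CPM. Mir19b-1 (ENSMUSG00000076256.1), at 115044305 to 115044391, had 1 count in each. Mir19a and Mir19b-1 flank Mir20a, which had 464 and 749 counts. These counts are uncertain for Mir19b-1, as its guide arm is identical to that of Mir19b-2 on the X chromosome, and a read that fits both has several places. The guide of Mir19a differs from that of Mir19b-1 by the substitution U11C (position from the 5′ end, Mir19a base first) and has no exact copy in another annotated miRNA hairpin. Whether reads of Mir19a had other places in the genome was not tested.

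Mir92-1 (ENSMUSG00000076062.1), the last gene of the cluster at 115044427 to 115044506, had 3959 counts (766.3 CPM) in replicate 1 and 868 counts (194.6 CPM) in replicate 2. It was thus higher in replicate 1, by 3.94-fold, a log2 ratio of -1.98 (-2.08 to -1.87), while Mir17 and Mir20a were higher in replicate 2. Mir92-1 held 68.3% of the counts of the cluster in replicate 1 (67.1% to 69.5%) and 26.5% in replicate 2 (24.95% to 28.0%). Mir17 held 22.9% in replicate 1 and 49.0% in replicate 2, and Mir20a 8.00% and 22.8%. The cluster summed to 929.0 ± 273.5 CPM (SD, n = 2), and its leading gene by counted reads was Mir92-1 in replicate 1 and Mir17 in replicate 2. Reads of the guide arms that Mir92-1 and Mir19b-1 share with X-chromosome copies enter no gene count. The sum and the shares of Mir92-1 may therefore be too low, which the intervals do not cover.

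**Figure D2:**
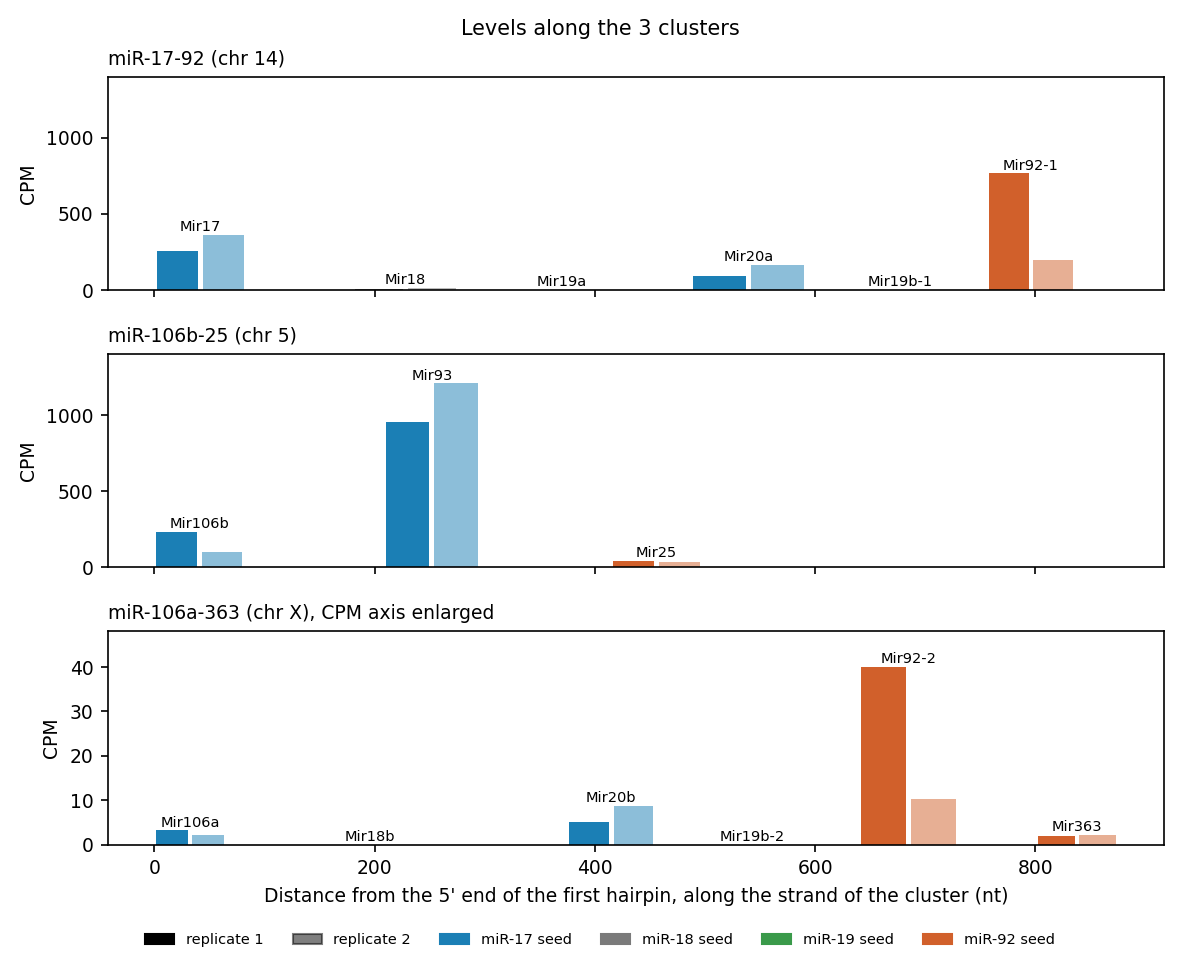
Levels (CPM) of the genes along the 3 clusters, by distance in nucleotides from the 5′ end of the first hairpin, with replicate 1 in full colour and replicate 2 pale; the axis of the X-chromosome cluster is enlarged. Mir92-1 stands at 766.3 CPM in replicate 1 against 194.6 in replicate 2, while Mir17 and Mir20a at the other end and in the middle of the cluster are higher in replicate 2.

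The count of Mir92-1 is uncertain too, because its guide arm is also that of Mir92-2 (X chromosome). The hairpins, read from the GENCODE M21 transcripts, share the 22 nucleotides in capitals, which hold the whole guide arm of 21 nucleotides.
Mir92-1 (chr14:115044427-115044506, plus strand): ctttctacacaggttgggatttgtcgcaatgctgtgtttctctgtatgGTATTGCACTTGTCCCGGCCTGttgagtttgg
Mir92-2 (chrX:52741838-52741928, minus strand): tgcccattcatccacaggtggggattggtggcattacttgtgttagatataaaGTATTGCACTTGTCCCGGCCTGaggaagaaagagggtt
A read inside the capitals fits both hairpins and enters no gene count, so a read of the exact guide arm adds to neither count. The gene counts hold the other reads, those given to 1 of the hairpins. Mir92-2 had 207 and 46 counts. The ratio of Mir92-1 to Mir92-2 was 19.1 (16.6 to 22.1) in replicate 1 and 18.9 (14.02 to 26.0) in replicate 2. The counts given to both copies were thus higher in replicate 1 by a similar factor, with a log2 ratio of -1.95 (-2.45 to -1.49) for Mir92-2. Which reads made up these counts is not known. Because the copies share their guide arm, the counts may not be separate measures of 2 genes, which was not tested.

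The miR-106b-25 genes lie on the minus strand of chromosome 5 (mm10) inside Mcm7. Mir106b overlaps no annotated exon of that gene, and Mir93 and Mir25 overlap an exon of a retained-intron transcript only. Mir93 (ENSMUSG00000065527.1), at 138165523 to 138165610, had 4935 counts (955.2 CPM) in replicate 1 and 5390 counts (1209 CPM) in replicate 2. It held 77.7% (76.6% to 78.7%) and 90.0% (89.3% to 90.8%) of the counts of its cluster, the larger share in replicate 2. Mir106b (ENSMUSG00000065514.1), at 138165737 to 138165818, carries the same seed but stood at 232.6 CPM (replicate 1) against 99.8 CPM (replicate 2). Mir93 was 0.34 higher in replicate 2 on the log2 scale (0.28 to 0.40), whereas Mir106b had a log2 ratio of -1.22 (-1.38 to -1.06). The ratio of Mir93 to Mir106b was accordingly 4.11 in replicate 1 and 12.1 in replicate 2.

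Mir25 (ENSMUSG00000065394.1), at 138165321 to 138165404, was the lowest of the cluster and carries the miR-92 seed. It had 218 counts (42.2 CPM) in replicate 1 and 151 counts (33.9 CPM) in replicate 2, a log2 ratio of -0.32 (-0.63 to -0.01). Mir93 exceeded it by 22.6-fold (19.8 to 26.0) and 35.7-fold (30.4 to 42.2) in the libraries. No other annotated miRNA hairpin holds an exact copy of either arm of Mir106b, Mir93 or Mir25. The cluster summed to 1286 ± 79.3 CPM (SD, n = 2), closer between the libraries than miR-17-92, and its sum leaned slightly to replicate 2.

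Mir92b (ENSMUSG00000076255.2) lies on the minus strand of chromosome 3 at 89227116 to 89227198 (mm10). No other annotated gene overlaps it, and the nearest is Mtx1 on the same strand, 28 nucleotides away. Its level was 2.83-fold higher in replicate 1, a log2 ratio of -1.50 (-1.52 to -1.47). Neither of its arms has a copy in another annotated miRNA hairpin, with up to 1 mismatch allowed. Mir92b exceeded Mir92-1 by 12.6-fold (12.2 to 13.1) in replicate 1 and 17.6-fold (16.5 to 18.9) in replicate 2. Reads of the guide arm that Mir92-1 shares with Mir92-2 enter no gene count, so the level of Mir92-1 may be too low and these ratios too high, which their intervals do not cover.

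Grouped by seed, the genes gave sums that differed in opposite directions. The miR-92 family, read from all 3 loci, reached 10499 CPM in replicate 1 against 3659 CPM in the other library. All of its 3 genes were higher in replicate 1, but Mir25 only slightly, with a log2 ratio of -0.32 (-0.63 to -0.01). The median over all expressed genes was -0.17. The miR-17 family was at 1534 and 1837 CPM, with 3 of its 4 genes higher in replicate 2 and Mir106b higher in replicate 1. The log2 ratio was -1.52 (-1.55 to -1.50) for the miR-92 family and 0.26 (0.21 to 0.30) for the miR-17 family. Of the counts of the 10 genes, the miR-92 family held 87.2% in replicate 1 and 66.4% in replicate 2, and the miR-17 family 12.7% and 33.3%. With 1 library on each side, these differences have no replicate check.

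Within each seed family the leading gene was the same in both libraries, with shares that were close but whose intervals did not overlap. Mir92b made up 92.3% (92.1% to 92.5%) of the miR-92 family in replicate 1 and 93.8% (93.4% to 94.1%) in replicate 2, shares that may be too high for the same reason as the ratios of Mir92b to Mir92-1. Mir93 made up 62.3% (61.2% to 63.3%) and 65.8% (64.8% to 66.8%) of the miR-17 family. Mir106b had the share that differed most in that family, at 15.2% in replicate 1 and 5.43% in replicate 2.

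**Figure D3:**
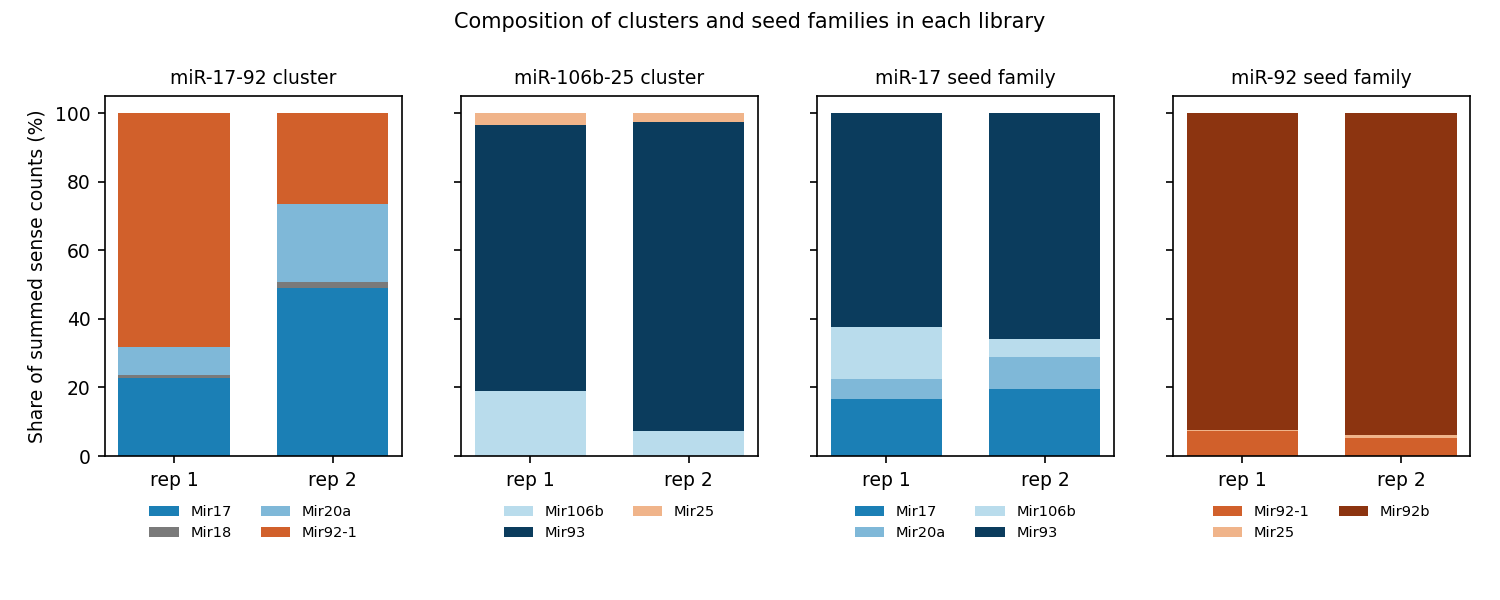
Share of each gene in the summed sense counts (%) of the miR-17-92 cluster, the miR-106b-25 cluster, the miR-17 seed family and the miR-92 seed family, with 1 bar per library; genes under 0.1% in both are not drawn. The miR-17-92 bar changes most, from 68.3% to 26.5% for Mir92-1, while Mir92b holds 92.3% and 93.8% of the miR-92 family.

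Of the 8 expressed genes, 3 lay past a 2-fold ratio between the libraries, Mir92-1, Mir92b and Mir106b, where 24.9% of the 409 expressed miRNA genes did. All of the 3 were higher in replicate 1, where 19.6% of expressed genes lay past 2-fold, against 5.38% in the other direction. The median log2 ratio was 0.01 over the 8 genes and -0.17 over all expressed genes. Scaling the libraries by edgeR's TMM added 0.13 to every log2 ratio and DESeq2 size factors added 0.20, which left the direction of all 8 genes and brought Mir20a past 2-fold, to a log2 ratio of 1.03 and 1.11. Mir25 came to -0.19 with TMM and -0.11 with DESeq2 size factors. Either shift takes its interval, -0.63 to -0.01 before, to both signs, so its direction was not clear of counting error. The interval of Mir18, -0.17 to 0.99, held both signs before these scalings. With either scaling 4 of the 8 genes lay past 2-fold, beside 24.2% and 23.7% of expressed genes.

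**Figure D4:**
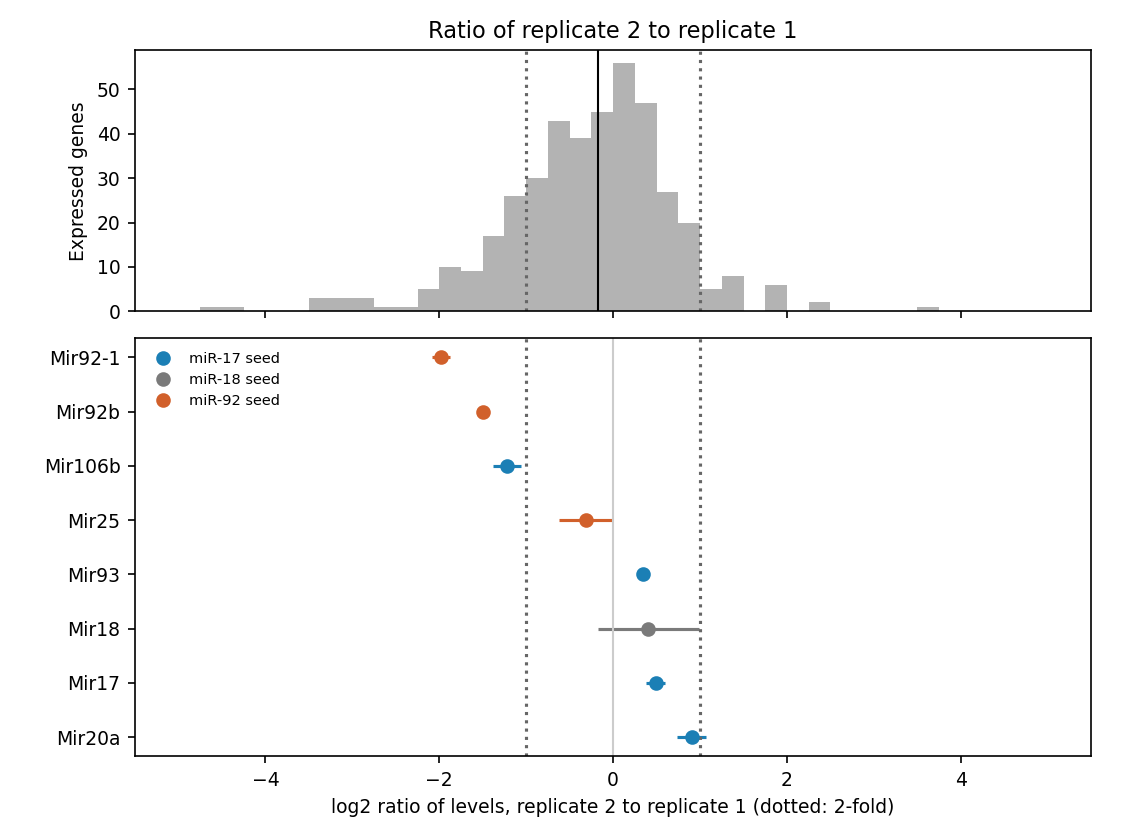
Log2 ratio of the level in replicate 2 to that in replicate 1, for the 409 expressed miRNA genes as a histogram with their median of -0.17 (upper panel), and for the 8 expressed genes with exact 95% intervals for counting error (lower panel); dotted lines mark 2-fold. Mir92-1, Mir92b and Mir106b lie past 2-fold towards replicate 1, and Mir20a lies just inside it towards replicate 2.

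Other lists moved between the libraries as well. Several miRNAs of these clusters are also known from red cells. The red cell list was at 122.1 and 71.5 CPM, with all 3 of its measured genes higher in replicate 1: Mir451a, Mir144 and Mir486. For Mir451a the interval of the log2 ratio, -0.24, held 0 (-0.53 to 0.04), while Mir144 and Mir486 had ratios of -1.30 and -1.18. The endothelial Mir126a was at 21256 and 10411 CPM, and the 7 epithelial genes summed to 1555 and 398.0 CPM. Of these, 6 were higher in replicate 1, while Mir203 was higher in replicate 2, at 77.8 and 274 CPM. The sums of the neuron list and of the oligodendrocyte genes Mir219a-2 and Mir338 (3945 and 3862 CPM) were closer, but single genes moved both ways. In the neuron list 6 genes were higher in replicate 1 and 5 in replicate 2, with log2 ratios of -0.53 for Mir128-1 and 0.63 for Mir137. Mir219a-2 and Mir338 had log2 ratios of -0.25 and 0.20. The leukocyte and microglia list summed to 1381 and 1331 CPM, of which Mir150 made up 1286 and 1154 CPM. Its other 3 genes, Mir142, Mir155 and Mir223, were higher in replicate 2, with log2 ratios of 0.92, 0.75 and 1.04 and intervals clear of 0. Their part in the ratios of the 10 genes was not tested, and in bulk tissue fewer cells of a type and less RNA per cell cannot be told apart. Base composition also moved with the ratio. The GC content of the hairpins and the log2 ratio of replicate 2 to 1 had a Pearson's r of -0.26 and a Spearman's rho of -0.30 across the 409 expressed genes, which share their libraries and are not independent. Across the 8 expressed genes r was -0.47 and rho -0.64. Mir92b had the highest hairpin GC content of the 8 at 67.5% and Mir18 the lowest at 43.8%, while Mir92-1, with the most negative ratio, stood at 47.5%. The order differed for the guide arms, which are of the size sequenced. Mir92b was highest there too, at 63.6%, followed by Mir92-1 at 57.1%. Mir20a was lowest at 39.1%, and Mir106b, higher in replicate 1, stood at 42.9%. The part of base composition in the ratios was not tested.

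The X-chromosome paralogue miR-106a-363, which carries the same seeds, had far lower gene counts than miR-17-92. Its 6 genes summed to 50.5 and 23.5 CPM in the libraries, with 3 of 6 expressed. Mir92-2 led with 40.1 and 10.3 CPM. Mir20b stood at 5.23 and 8.74 CPM, Mir106a at 3.29 and 2.24 CPM, and Mir363 at 1.94 and 2.24 CPM. Mir18b and Mir19b-2 had 0 counts in both libraries. Mir92-2 and Mir19b-2 share their guide arms with Mir92-1 and Mir19b-1, and reads that fit both copies enter no gene count. The levels of Mir92-2 and Mir19b-2 and the sum of the X cluster may therefore be too low. Mir17 exceeded Mir106a, whose guide arm differs from that of Mir17 by the single substitution U10A, by 78.0-fold (48.5 to 134.3) in replicate 1 and 160.7-fold (87.2 to 335.8) in replicate 2. Mir20a exceeded Mir20b by 17.2-fold (11.7 to 26.4) and 19.2-fold (13.9 to 27.2). Along the X cluster Mir92-2 was higher in replicate 1 and Mir20b in replicate 2. The interval of the log2 ratio of Mir20b, 0.73, ran from -0.0021 to 1.51. The other counted genes leaned the opposite way from these within their seed families, with intervals of both signs. Mir106a of the miR-17 seed had a log2 ratio of -0.52 (-1.84 to 0.66), and Mir363 of the miR-92 seed 0.21 (-1.21 to 1.63).

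Beyond these clusters, 3 annotated genes have a mature arm with 1 of the 4 seeds. Mir32 of the miR-92 seed had 72 counts (13.9 CPM) in replicate 1 and 57 counts (12.8 CPM) in replicate 2. Mir367, also of the miR-92 seed, and Mir6383 of the miR-17 seed had 0 counts in both libraries. Adding every gene with the seed moved the mean of the miR-92 family from 7079 to 7120 CPM and that of the miR-17 family from 1685 to 1695 CPM.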

How the data were processed

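Small RNA of left cerebral cortex was counted in 2 libraries of 1 group. The authors deposited raw read counts per miRNA gene in 3 columns, 1 that ignores strand and 1 for either strand, on mm10 with GENCODE M21 per the labels and the deposited file descriptions. Which aligner and counter made them is not given in the sources used. The column with the larger stranded total was taken as sense. The 4 lines that name no gene, 65.2% and 65.1% of reads, were left out of library sizes. Symbols and positions came from GENCODE M21, mature arms from RefSeq.

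Levels are CPM of the sense total. Expressed means 2 CPM or more in both libraries. Ratios add 0.5 to each count. Their intervals and those of shares are exact (Clopper-Pearson), computed with scipy 1.17.1, and those of levels are exact Poisson. Only the ratios and their intervals were tested on simulated data, drawn as Poisson counts that hold counting error alone. edgeR 4.0.16 and DESeq2 1.42.0 gave only alternative scaling factors. No p-value was computed, as there is 1 group. Copies of arms were searched on both strands of all annotated miRNA hairpins, not in the genome.

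All 10 members are named, with the 6 genes of miR-106a-363, marker genes where their values stand beside a result, and the 3 expressed genes nearest to Mir92b, Mir25, Mir93 and Mir17 in log2(CPM + 1) over both libraries. Members and lists were chosen with earlier results of these data known. Mir32, Mir367 and Mir6383 were found by a seed search made after the values were seen. The erythroid list also named Mir486b, which matched no symbol.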

Additional observations from a re-analysis of the deposited data

Results flagged for a closer look

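Reads with several places in the genome, which no value above uses, numbered 6203588 in replicate 1 and 5928954 in replicate 2, above the limit of 3 counts. They are not split by gene, so how many came from Mir92-1, Mir19b-1 or another of the 10 genes was not tested. Antisense counts at the 10 genes came to 1 in all, at Mir92b in replicate 1.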

How the results depend on the processing

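No paired analysis was possible because the labels give 1 group. Dividing by all reads in the table lowered the mean sums to 323.7 CPM for miR-17-92, 448.2 CPM for miR-106b-25, 3057 CPM for all 10 genes, 587.3 CPM for the miR-17 family and 2465 CPM for the miR-92 family. The unstranded column, with its smaller total, gave 1392 CPM for miR-106b-25. Without Mir92b the sum was 2215 CPM for the 10 genes and 518.5 CPM for the miR-92 family. The log2 ratio of replicate 2 to 1 was 0.39 (TMM) and 0.46 (DESeq2 size factors) for the miR-17 family, and -1.39 and -1.32 for the miR-92 family. With 1 library at a time the sums ran from 735.7 to 1122 CPM for miR-17-92, 1230 to 1342 CPM for miR-106b-25, 5508 to 12043 CPM for the 10 genes, 1534 to 1837 CPM for the miR-17 family and 3659 to 10499 CPM for the miR-92 family. At a minimum of 10 CPM in both libraries, 7 genes were expressed in place of 8, beside 300 of all 2202 genes. At 1 and 5 CPM 8 were expressed, and the share over all genes was not computed there. Counts were low for Mir19a, Mir19b-1 and Mir18, with 0, 1 and 49 in replicate 1. The part of depth and of reads with several places in this was not tested. No ratio changed sign under the scalings and added counts tried.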

Other observations

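By distance of log2(CPM + 1) over both libraries, the expressed genes nearest to Mir92b were Mir22 (10531 CPM in replicate 1 and 2963 CPM in replicate 2), Mir149 (12351 and 3326 CPM) and Mir383 (5880 and 5278 CPM). Mir22 and Mir149 were thus near Mir92b in level and also higher in replicate 1. Those nearest to Mir93 were Mir31 (954.8 and 1046 CPM), Mir185 (1104 and 1279 CPM) and Mir222 (889.0 and 1395 CPM). Mir17 lay nearest to Mir873a (247.2 and 348.9 CPM), Mir125b-2 (290.9 and 328.3 CPM) and Mirlet7a-1 (282.0 and 408.7 CPM). Mir25 lay nearest to Mir539 (45.7 and 30.5 CPM), Mir148a (39.9 and 40.1 CPM) and Mir345 (49.7 and 31.4 CPM). With 2 libraries this likeness is a closeness of level and ratio and no pattern over conditions.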
